A study of Mus musculus with 10 samples.

Results

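The genes examined here encode enzymes that make superoxide, the reactive molecule formed when oxygen takes up a single electron, or that remove it or the hydrogen peroxide it turns into, and their subunits. The list holds 9 genes of the 47729 in the count table: 4 removal genes (Sod1, Sod2, Sod3 and Cat) and 5 production genes (Cyba, Cybb, Ncf1, Ncf4 and Nox4). The rule named them by function, as superoxide dismutases, catalase and subunits of NADPH oxidases, and matched each name to its Ensembl gene identifier. All 9 were among the 16362 genes with enough counts to test.

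RNA was sequenced from the retinal pigment epithelium (RPE), a single sheet of pigmented cells beneath the retina, in 5 CD1 mice (wild type, postnatal day 40). In each mouse the GFP control eye had received AAV Best1 GFP alone, and the Nrf2 eye had received AAV Best1 GFP together with AAV Best1 Nrf2. AAV, an adeno-associated virus, serves here as the gene carrier, and the human Best1 promoter limits expression to the RPE. The Nrf2 vector carried the human coding sequence of a transcription factor that turns on antioxidant genes, and both groups carried GFP. Nrf2 eyes thus received an additional vector, with no equal dose of another vector in the control eyes. RNA was collected from the eyecup after the retina had been taken out, so other cells of the eyecup could contribute to it.

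Superoxide dismutases convert superoxide into hydrogen peroxide, and catalase breaks hydrogen peroxide down into water and oxygen. NADPH oxidases work in the opposite direction, since they pass electrons from NADPH across a membrane to oxygen. In phagocytes such as macrophages, microglia and neutrophils, the catalytic subunit of this enzyme sits in the membrane with a partner subunit, and cytosolic subunits join it when the cell is activated. The RPE takes up and digests the shed tips of photoreceptors every day under strong light and a high oxygen supply, and it is known for a large antioxidant capacity.

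Library totals ran from 12298404 to 27310638 counts. Values are given in CPM (counts scaled to the same total in every library), and a count of 0 allows up to 3 counts, or 0.110 to 0.244 CPM, counting error only. Mouse Nfe2l2, the gene of Nrf2, ranged from 79.3 to 110 CPM in control eyes and from 267 to 414 CPM in Nrf2 eyes, a count that can include reads of the human sequence. RPE markers summed to 20330 to 44750 CPM in control eyes and to 10130 to 28100 CPM in Nrf2 eyes, and 6 of 11 fell, where 2.73% of all tested genes did (edgeR, paired by mouse, adjusted p under 0.05). Ttr alone, which did not pass the test, was at 6761 to 19040 and 7491 to 20340 CPM of these sums. Rpe65, the isomerase of the visual cycle, was at 2781 to 4519 CPM in control eyes and at 198 to 1080 CPM in Nrf2 eyes, whereas Best1 itself was at 0.119 to 1.503 CPM over all 10. In such bulk samples, fewer cells of a type and less RNA per cell cannot be told apart. Rod photoreceptor markers summed to 162 to 21390 CPM, and both eyes of mouse 2 were high in them (21390 CPM in the control eye and 8326 CPM in the Nrf2 eye).

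Promoter sequences, from 250 bases before to 50 bases after the start site of each gene, were read from RefSeq (GRCm38.p6), in which 7 of the 9 genes had a window. The windows of 4 genes are shown because they belong to the removal gene and the production gene with the clearest changes, Cat and Ncf1, and to the genes with a match beside the start site, Sod1 and Cybb. Capitals mark matches to the core of the antioxidant response element, TGACNNNGC, through which Nrf2 acts, or to the core of sites for PU.1, GAGGAA, a factor of myeloid cells. Each was searched on both strands. The windows lie at chr16:90220512-90220811 (plus strand) for Sod1, chr2:103485104-103485403 (minus strand) for Cat, chr5:134229576-134229875 (minus strand) for Ncf1 and chrX:9469275-9469574 (minus strand) for Cybb.
Sod1: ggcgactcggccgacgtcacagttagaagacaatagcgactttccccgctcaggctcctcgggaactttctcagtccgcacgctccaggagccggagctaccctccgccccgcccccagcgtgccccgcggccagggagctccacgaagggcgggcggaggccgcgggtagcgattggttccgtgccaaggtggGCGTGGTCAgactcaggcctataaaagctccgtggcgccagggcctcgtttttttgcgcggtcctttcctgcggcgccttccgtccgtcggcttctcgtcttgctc
Cat: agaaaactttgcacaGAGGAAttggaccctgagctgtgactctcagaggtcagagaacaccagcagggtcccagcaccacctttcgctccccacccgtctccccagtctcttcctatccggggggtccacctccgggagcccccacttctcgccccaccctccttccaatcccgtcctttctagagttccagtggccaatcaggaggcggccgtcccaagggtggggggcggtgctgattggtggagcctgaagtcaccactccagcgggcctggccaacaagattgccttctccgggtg
Ncf1: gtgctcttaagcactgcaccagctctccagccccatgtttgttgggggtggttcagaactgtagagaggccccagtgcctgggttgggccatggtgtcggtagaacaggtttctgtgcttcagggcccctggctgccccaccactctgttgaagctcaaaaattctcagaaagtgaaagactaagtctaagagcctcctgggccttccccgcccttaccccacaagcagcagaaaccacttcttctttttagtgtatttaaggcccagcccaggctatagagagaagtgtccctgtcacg
Cybb: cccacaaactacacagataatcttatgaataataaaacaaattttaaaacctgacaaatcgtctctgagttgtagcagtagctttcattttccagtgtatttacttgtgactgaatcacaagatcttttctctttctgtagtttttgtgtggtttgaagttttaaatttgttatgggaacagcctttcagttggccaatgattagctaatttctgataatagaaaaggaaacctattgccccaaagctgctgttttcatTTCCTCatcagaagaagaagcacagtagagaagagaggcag

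The antioxidant response element core was found in the window of 1 of the 7 genes, Sod1, where it begins at base -56 from the start site and reads on the opposite strand. The same letters occur in 12.4% of 32851 promoter windows of this length. The PU.1 core was found in Cat at base -235, in Sod2 at base -203 and, on the opposite strand, in Cybb at base 9. It occurs in 28.3% of the windows. The motifs did not overlap each other in any of the 7 windows. A match describes the letters only, and the windows of Ncf1, Cyba and Nox4 held neither motif.

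Removal and production genes were first set beside each other. Of the 4 removal genes, 1 (Cat) was higher in Nrf2 eyes at an adjusted p under 0.05, and of the 5 production genes, 2 (Ncf1 and Ncf4) were, while 0 of 9 were lower, in edgeR or in DESeq2 and also at an unadjusted p under 0.05. The background for these counts is that 3.60% of the tested genes were called higher and 6.33% in either direction, by the edgeR quasi-likelihood test paired by mouse, which gives every adjusted p below unless another tool is named. The fitted log2 fold changes were above 0 for all 4 removal genes, with a median of 0.39, and for all 5 production genes, with a median of 1.23, against a median of -0.01 for all tested genes. In 5 of the 9 genes (Sod2, Cat, Cyba, Ncf1 and Ncf4) every Nrf2 eye lay above every control eye, which was so for 3.87% of all tested genes.

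**Figure D1:**
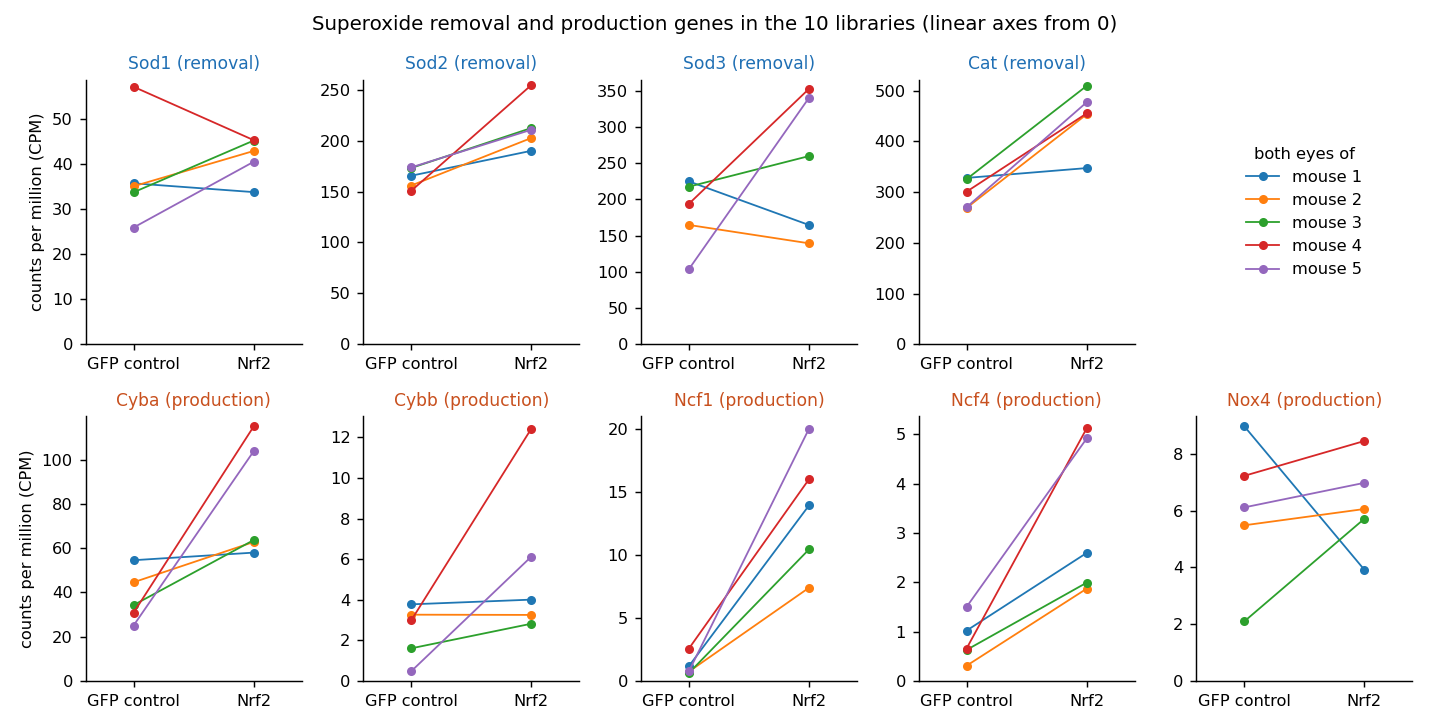
Level of each gene (CPM, linear axis from 0) in the GFP control eye and the Nrf2 eye, with a line joining both eyes of 1 mouse and 1 color per mouse (n = 5 mice). Every Nrf2 eye lay above every control eye for Sod2, Cat, Cyba, Ncf1 and Ncf4. Lines ran both upward and downward for Sod1, Sod3 and Nox4, and for Cybb all ran upward but the nearly flat line of mouse 2 (3.27 and 3.25 CPM).

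Within single mice, the median log2 difference of the production genes exceeded that of the removal genes in 5 of 5 mice. The production medians were 0.09, 0.49, 1.41, 2.02 and 2.05 in mice 1 to 5, and the removal medians were 0.00, 0.33, 0.36, 0.68 and 0.73. Mouse 1 thus had the smallest medians of both roles and mouse 5 the largest. The gap between the roles ran from 0.09 in mouse 1 to 1.35 in mouse 4. No test was made over the listed genes.

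Catalase was the removal gene that rose. Cat (ENSMUSG00000027187, chromosome 2, 103453849 to 103485160, minus strand, mm10) was at 328, 269, 326, 301 and 270 CPM in control eyes, in the order of mice 1 to 5 used throughout. It was at 347, 454, 510, 455 and 477 CPM in Nrf2 eyes. All 5 Nrf2 eyes were above the highest control eye, and in mouse 1 the eyes were close to each other. The means were 299 ± 28.7 and 449 ± 61.0 CPM (SD, n = 5 each), giving a log2 fold change of 0.57 ± 0.13 (SE, 1.48-fold, adjusted p = 0.0334). The adjusted p was 0.143 with the rod markers as a covariate, and with 4 mice it was 0.117, 0.0882, 0.0801 and 0.101 without mouse 2, 3, 4 or 5, while the log2 fold change stayed between 0.52 and 0.70.

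Catalase works mainly inside peroxisomes, the organelles that burn long fatty acids. Of 6 tested genes for building, importing into or working in peroxisomes, 0 passed in edgeR or in DESeq2, 1 (Pex19) was lower at an unadjusted p under 0.05, and the median log2 fold change was -0.17. Red blood cells are rich in catalase protein, and the summed erythrocyte markers, mostly hemoglobin genes, were at 275 to 2180 CPM in control eyes and at 370 to 2513 CPM in Nrf2 eyes, with 0 of 5 passing in edgeR, by unadjusted p or in DESeq2. The part of blood RNA in the Cat values was not tested.

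The mitochondrial dismutase was higher by a smaller amount and did not pass the test. Sod2 (ENSMUSG00000006818, chromosome 17, 13006846 to 13040063, plus strand), which encodes the manganese enzyme of the mitochondrial matrix, was at 166, 156, 173, 151 and 174 CPM in control eyes. It was at 190, 203, 212, 255 and 211 CPM in Nrf2 eyes, so that the groups did not overlap and each mouse was higher in its Nrf2 eye. Its log2 fold change was 0.37 ± 0.10 (SE, with adjusted p = 0.0922), and DESeq2, in which 5.42% of 19592 genes were called higher, gave an adjusted p of 0.0333. Its coding transcripts share stretches of 116 to 193 bases with 13 other genes, so some of its reads could have been shared or lost. The rod gene Sag, at a mean of 679 CPM, is among them.

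The cytosolic dismutase did not differ beyond its spread. Sod1 (ENSMUSG00000022982, chromosome 16, 90220754 to 90226329, plus strand), the copper and zinc enzyme of the cytosol, was at 35.7, 35.0, 33.7, 57.0 and 25.9 CPM in control eyes. In Nrf2 eyes it was at 33.7, 42.8, 45.1, 45.2 and 40.4 CPM. The control eye of mouse 4 was the highest of the 10 libraries, and 3 of 5 mice were higher in the Nrf2 eye. The log2 fold change was 0.17 ± 0.18 (SE, with adjusted p = 0.642). Its counts are uncertain because reads alike in Sod1 and Gm8566, a gene with 97.8% identity over 465 bases, could have been lost. Few reads were assigned to Gm8566 itself, at a mean of 0.0555 CPM. Scaf4 overlaps Sod1 on the opposite strand, with a mean of 34.2 CPM and a log2 fold change of -0.05.

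The extracellular dismutase varied most among the removal genes. Sod3 (ENSMUSG00000072941, chromosome 5, 52363791 to 52371418, plus strand), the secreted enzyme that binds to the matrix around cells, was at 225, 165, 218, 194 and 104 CPM in control eyes. In Nrf2 eyes it was at 165, 139, 260, 353 and 341 CPM. The lowest control eye was that of mouse 5 and the lowest Nrf2 eye that of mouse 2. Mice 1 and 2 were lower in the Nrf2 eye, and mice 4 and 5 were higher by the most. The log2 fold change was 0.41 ± 0.39 (SE, with adjusted p = 0.554), and it was 0.11 without mouse 5.

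Over the 10 libraries, the genes whose pattern was most like that of Sod3 were Fbln1, a matrix glycoprotein (Pearson's r = 0.990 of log2 CPM), Ogfod3 (r = 0.977) and Fmod, a collagen-binding proteoglycan (r = 0.975). After the group means were subtracted, r was 0.989, 0.990 and 0.970. The libraries share their amplification and tissue handling, and these values only describe them. Summed fibroblast markers were 677, 279, 125, 214 and 545 CPM in control eyes and 135, 348, 227, 775 and 379 CPM in Nrf2 eyes, and 0 of 6 passed in edgeR, by unadjusted p or in DESeq2. This sum was lower in the Nrf2 eye in mice 1 and 5, whereas Sod3 was lower in mice 1 and 2. In mouse 5 the single markers differed by -1.52 (Pdgfra) to 0.31 (Col3a1) on the log2 scale. The part of fibroblasts in the Sod3 values was not tested.

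Genes that supply metal to the dismutases did not pass the test. Ccs, the chaperone that hands copper to Sod1, was at 26.7 ± 1.83 CPM in control and 26.9 ± 2.84 CPM in Nrf2 eyes (SD, n = 5 each), giving a log2 fold change of -0.01 ± 0.09 (SE, with adjusted p = 0.983). Of 6 tested genes of copper and manganese supply, 0 passed in edgeR, 0 had an unadjusted p under 0.05 and 0 passed in DESeq2. Their log2 fold changes ran from -0.18 to 0.13.

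Among the production genes, the cytosolic organizer of the phagocyte oxidase differed the most. Ncf1 (ENSMUSG00000015950, chromosome 5, 134220053 to 134229625, minus strand) encodes the subunit that is phosphorylated when the cell is activated and then carries the cytosolic complex to the membrane. It was at 1.17, 0.739, 0.629, 2.57 and 0.769 CPM in control eyes, or 9 to 43 counts. It was at 13.9, 7.40, 10.45, 16.02 and 20.03 CPM in Nrf2 eyes. The lowest Nrf2 eye (mouse 2) was above the highest control eye (mouse 4), and all 5 mice differed by at least 2.59 on the log2 scale.

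The means of Ncf1 were 1.18 ± 0.805 and 13.6 ± 4.89 CPM (SD, n = 5 each), giving a log2 fold change of 3.61 ± 0.33 (SE, 12.2-fold, adjusted p = 0.00153). Ncf1 passed the test in each of the 13 alternatives, with log2 fold changes from 3.35 to 4.00. Gtf2ird2 overlaps it on the opposite strand, and without the strand setting its reads cannot be separated there. That neighbour had a log2 fold change of 0.06 (adjusted p = 0.889) at a mean of 13.5 CPM.

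The second cytosolic subunit rose as well. Ncf4 (ENSMUSG00000071715, chromosome 15, 78244801 to 78262580, plus strand) encodes the subunit that binds a lipid of the phagosome membrane and keeps the oxidase active there. It was at 1.02, 0.308, 0.629, 0.657 and 1.501 CPM in control eyes and at 2.60, 1.87, 1.99, 5.12 and 4.92 CPM in Nrf2 eyes. The groups did not overlap, with the control eye of mouse 5 closest to the Nrf2 eye of mouse 2. The log2 fold change was 1.99 ± 0.28 (SE, 3.98-fold, adjusted p = 0.0148). This rests on 5 to 81 counts per library, and the adjusted p was 0.0562 without mouse 2 and 0.0558 with the rod markers as a covariate.

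The partner subunit in the membrane was higher in every mouse by very different amounts. Cyba (ENSMUSG00000006519, chromosome 8, 122424776 to 122432930, minus strand) encodes the small subunit that stabilizes the catalytic subunits of several NADPH oxidases, that of phagocytes and Nox4 included. It was at 54.6, 44.6, 34.3, 30.8 and 25.1 CPM in control eyes and at 58.0, 62.8, 63.7, 115 and 104 CPM in Nrf2 eyes. The groups did not overlap, but the eyes of mouse 1 were nearly alike and those of mice 4 and 5 stood far apart.

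The means of Cyba were 37.9 ± 11.7 and 80.7 ± 26.7 CPM (SD, n = 5 each), giving a log2 fold change of 1.07 ± 0.39 (SE, 2.10-fold, adjusted p = 0.0834). It missed the threshold in the paired fit. It passed without the pairing of the eyes (adjusted p = 0.0291), without a filter on low counts (0.0331), without mouse 1 (0.0481) and with DESeq2 (0.00240). It did not pass with the rod markers as a covariate (log2 fold change 0.85, adjusted p = 0.326) or without mouse 2, 3, 4 or 5 (adjusted p 0.122 to 0.224). The gene Gm20388 overlaps it on the opposite strand, with a mean of 28.2 CPM and a log2 fold change of -0.04.

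The catalytic subunit of the phagocyte oxidase was low and did not pass the test. Cybb (ENSMUSG00000015340, chromosome X, 9435252 to 9487771, minus strand), which encodes NOX2, was at 3.78, 3.27, 1.61, 2.99 and 0.476 CPM in control eyes. In Nrf2 eyes it was at 4.01, 3.25, 2.82, 12.4 and 6.13 CPM. Mice 1 and 2 were alike in both eyes, mice 4 and 5 were far higher in the Nrf2 eye, and the groups overlapped. The log2 fold change was 1.23 ± 0.65 (SE, with adjusted p = 0.290), from 0.73 without mouse 5 to 1.62 without mouse 2.

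Nox4 had no detectable difference. Nox4 (ENSMUSG00000030562, chromosome 7, 87246096 to 87398710, plus strand) encodes an oxidase that needs Cyba but no cytosolic subunit and releases mainly hydrogen peroxide. It was at 8.98, 5.48, 2.10, 7.23 and 6.12 CPM in control eyes and at 3.92, 6.06, 5.72, 8.46 and 6.98 CPM in Nrf2 eyes. Mouse 1 fell by 1.18 and mouse 3 was higher by 1.41 on the log2 scale, and the other 3 mice were higher by 0.14 to 0.22. The log2 fold change was 0.13 ± 0.41 (SE, with adjusted p = 0.906), and it was -0.12 without mouse 3.

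**Figure D2:**
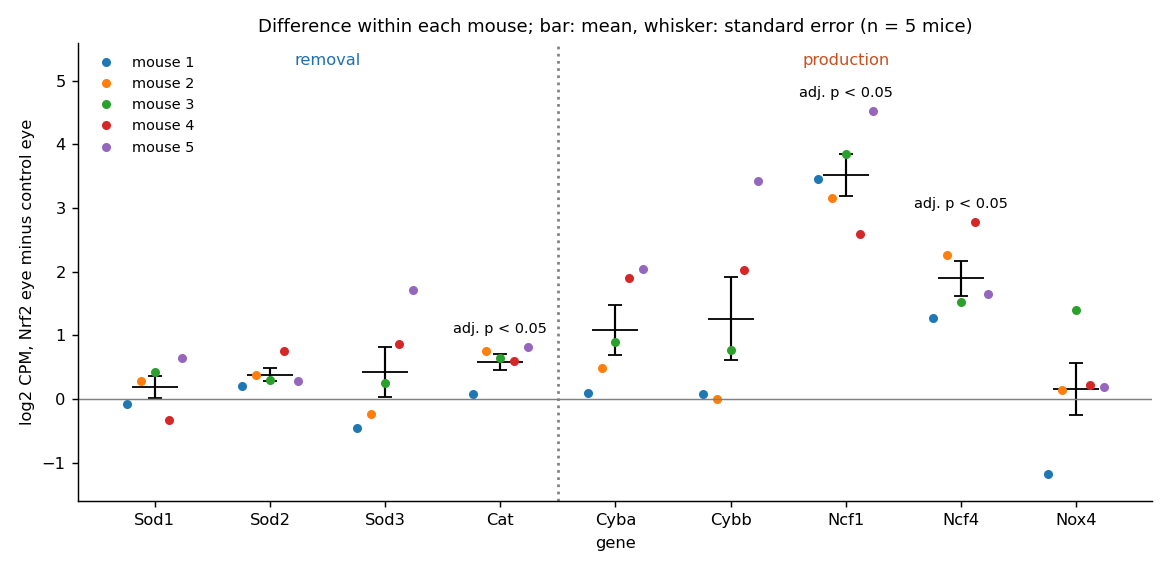
Difference of log2 CPM (prior count 2) between the Nrf2 eye and the control eye of each mouse, by gene, with the mean (bar) and its standard error (whisker) over 5 mice. All points of Ncf1 and Ncf4 lie above 1, those of Cat between 0.08 and 0.82, and those of Sod1, Sod3, Cybb and Nox4 spread on both sides of 0 or down to it.

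Among the other NADPH oxidase genes reported here, 2 rose. Rac2, the GTPase of blood cells that switches the complex on, rose by 2.65 (SE 0.36, adjusted p = 0.00661) from 1.27 ± 0.836 to 7.50 ± 3.61 CPM. Hvcn1, a proton channel that offsets the charge the oxidase moves, rose by 3.96 (SE 0.67, adjusted p = 0.00823) from 1.22 ± 1.19 to 16.8 ± 8.19 CPM.

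Rac1, the GTPase present in nearly all cells, was at 598 ± 61.3 and 618 ± 29.6 CPM, giving a log2 fold change of 0.04 ± 0.06 (SE, with adjusted p = 0.911). In all, 2 of 11 tested genes of this list rose and 0 fell (of all tested genes, 3.60% rose and 2.73% fell), with a median of 0.25, and the remaining 4 of the 15 were too low to test, with Nox3 at 0 in all libraries. Duox1, a peroxide-producing oxidase of epithelia, was at 9.21 ± 3.88 and 15.01 ± 3.57 CPM and higher in 5 of 5 mice, but its log2 fold change of 0.75 (SE 0.28) missed the threshold (adjusted p = 0.137), which it passed with DESeq2.

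Beside the oxidases, 1 of 4 tested genes of other superoxide sources rose, where 3.60% of all tested genes did. Aox1, an aldehyde oxidase that can release superoxide as it works, rose from 1.47 ± 0.946 to 44.5 ± 5.15 CPM (SD, n = 5 each), giving a log2 fold change of 5.00 ± 0.42 (SE, with adjusted p = 0.000636). Its lowest Nrf2 eye was at 38.3 CPM and its highest control eye at 3.06 CPM. Xdh, the xanthine oxidoreductase gene, had a log2 fold change of -0.0048 ± 0.28 (SE, with adjusted p = 0.996).

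Of the other genes that remove peroxides, 4 of 11 rose and 0 fell, against 3.60% and 2.73% of all tested genes, with a median log2 fold change of 0.83. Srxn1, which repairs oxidized peroxiredoxins, rose from 39.3 ± 8.15 to 1219 ± 149 CPM, giving a log2 fold change of 4.96 ± 0.15 (SE, with adjusted p = 5.02e-05). Prdx1 rose by 2.03 (SE 0.20, adjusted p = 0.00144), Prdx6 by 1.81 (SE 0.14, adjusted p = 0.00157) and Gpx4 by 1.21 (SE 0.15, adjusted p = 0.00734), and all are peroxidases. Each of these values was above the 0.57 of Cat, although the difference between the genes was not tested.

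**Figure D3:**
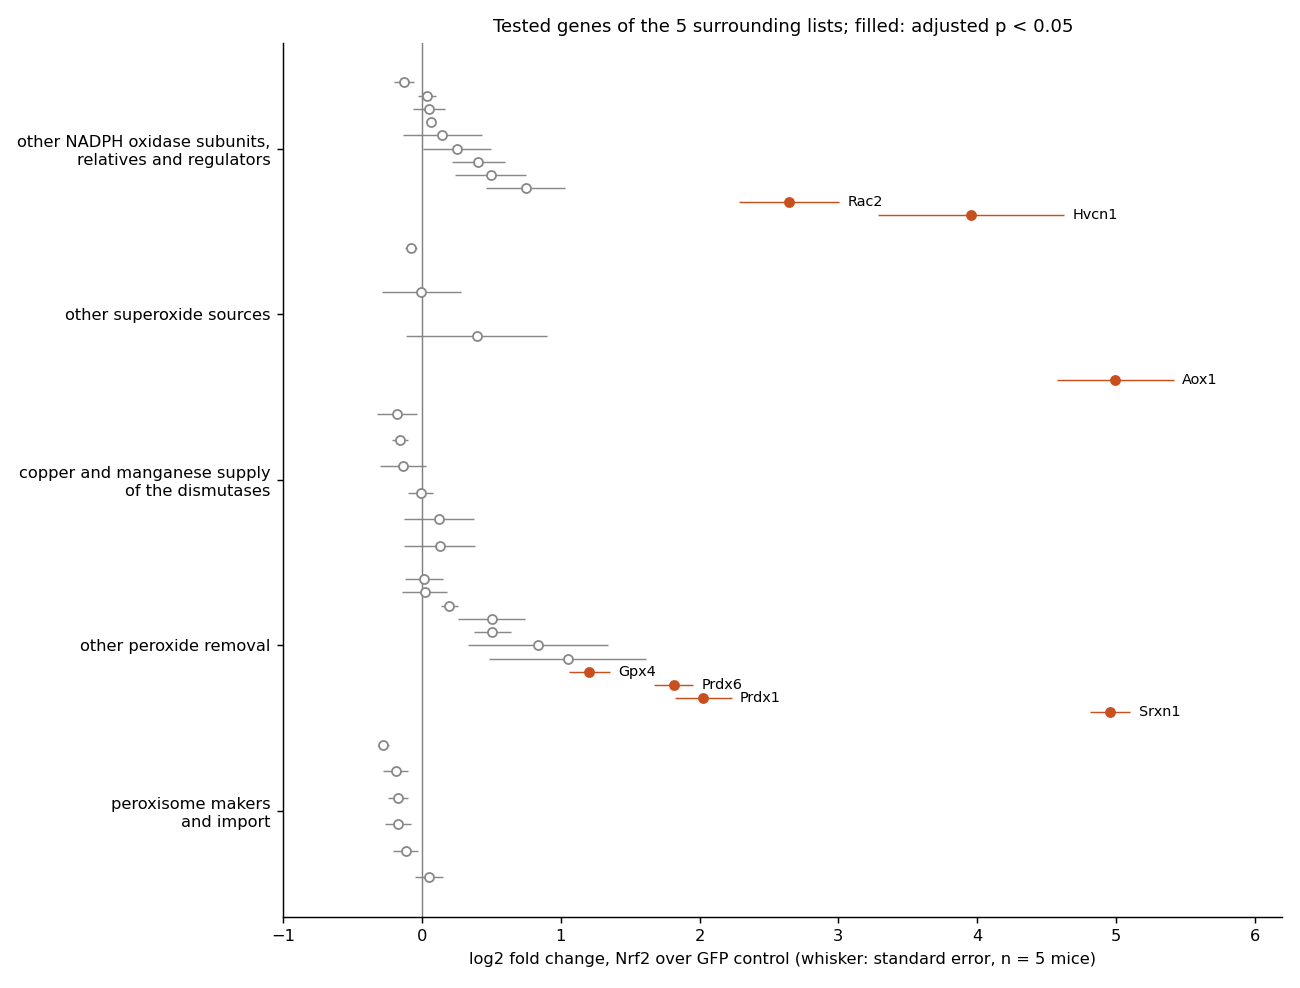
Fitted log2 fold change (Nrf2 over GFP control) of every tested gene in the 5 lists around the superoxide genes, with the standard error over 5 mice as a whisker. Filled points passed an adjusted p of 0.05: 2 oxidase genes, Aox1 and 4 peroxide removal genes, all above 1, against 0 genes of metal supply or peroxisomes.

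Markers of microglia and macrophages rose in the same libraries. Of 15 such markers, 12 rose (3.60% of all tested genes did), with a median log2 fold change of 4.20, and their summed level was 303 to 387 CPM in control eyes and 557 to 2194 CPM in Nrf2 eyes. Csf1r, at 135 to 246 CPM, and Itgam, at 36.5 to 148 CPM, made up most of the sum in control eyes. The complement genes C1qa, C1qb and C1qc together were at 6.08 to 22.5 CPM in control and at 165 to 934 CPM in Nrf2 eyes. Csf1r (-0.57, adjusted p = 0.301), Itgam (0.34, adjusted p = 0.618) and Ptprc (1.87, adjusted p = 0.0553) did not pass. Among the Nrf2 eyes Ncf1 and the C1q sum had the same order, lowest in mouse 2, then mice 3, 1, 4 and 5, but among the control eyes they did not, with Ncf1 lowest in mouse 3 and highest in mouse 4, and C1q lowest in mouse 5 and highest in mouse 1. Cybb was nearly alike in both eyes of mice 1 and 2 (log2 differences of 0.08 and -0.01), in which C1qa was higher by 4.32 and 3.57, and Nox4 did not pass the test. The genes most like Ncf1 over the 10 libraries were Adgre1 (r = 0.988), C1qa (r = 0.983) and Trem2 (r = 0.983), all of them microglial or macrophage genes, and within groups r was 0.895, 0.828 and 0.840.

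Markers of other blood cells that carry this oxidase were too low to test or did not pass, with 1 exception. Of 10 neutrophil markers, 4 could be tested and 1 rose, where 3.60% of all tested genes did. It was Csf3r (5.09, adjusted p = 0.0186), a receptor gene that microglia also express. Csf3r was at 0 to 2.33 CPM in control eyes and at 5.57 to 32.1 CPM in Nrf2 eyes, so its entry into the test rested on the Nrf2 eyes. Of the granule genes, Ngp was at 0 in all libraries, Camp at up to 0.179 CPM and Mpo at up to 0.607 CPM, whereas Ltf was at 9.96 to 81.8 CPM in control eyes and 14.6 to 193 CPM in Nrf2 eyes (log2 fold change 0.48, adjusted p = 0.558). Monocyte markers summed to 41.8 to 198 CPM in control and 64.8 to 189 CPM in Nrf2 eyes, of which Plac8 alone was 30.8 to 192 and 40.4 to 176 CPM, with 0 of 5 passing in edgeR, by unadjusted p or in DESeq2, and B and plasma cell markers to at most 7.64 CPM. Of the T cell, endothelium, smooth muscle, rod, cone and skeletal muscle markers, 0 passed in edgeR. Only 1 of the 6 T cell markers could be tested there. At an unadjusted p under 0.05, 3 cone markers, 1 rod marker and 1 smooth muscle marker were lower, and 0 markers of these lists were higher. The median log2 fold change was -0.95 for the 7 tested cone markers and -1.13 for the 11 tested rod markers. DESeq2 called Cd3e higher and Cspg4, Pde6h and Rp1 lower. Of 2 tested melanocyte markers 1 (Sox10) fell, where 2.73% of all tested genes did, and Mlana had a log2 fold change of 0.37 (adjusted p = 0.636). The part of any of these cells, or of microglia and macrophages, in the oxidase values was not tested.

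**Figure D4:**
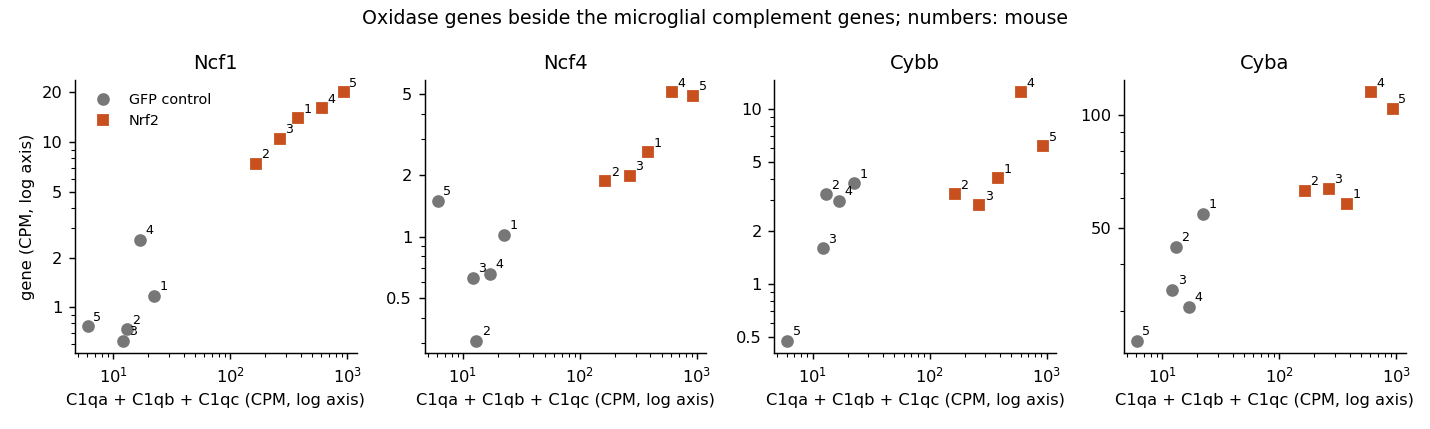
Level of Ncf1, Ncf4, Cybb and Cyba (CPM, log axis) against the summed level of C1qa, C1qb and C1qc (CPM, log axis) in the 10 libraries, numbered by mouse, control eyes as gray circles and Nrf2 eyes as orange squares. C1q levels of the groups do not overlap (6.08 to 22.5 against 165 to 934 CPM), and neither do those of Ncf1, Ncf4 and Cyba, whereas those of Cybb do.

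Per length of transcript, removal genes and Cyba were far more abundant than the phagocyte subunits. In CPM per kilobase of the longest coding transcript, control eyes had 114 ± 10.98 of Cat, 58.4 ± 18.2 of Sod1, 50.9 ± 15.8 of Cyba, 48.4 ± 13.2 of Sod3 and 27.9 ± 1.75 of Sod2 (SD, n = 5 each). Nox4 followed at 1.59 ± 0.678, then Ncf4 at 0.562 ± 0.311, Cybb at 0.510 ± 0.285 and Ncf1 at 0.408 ± 0.279. Sod1, Cyba and Sod3 were within 1 SD of each other, as were Ncf4, Cybb and Ncf1.

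In Nrf2 eyes the same scale gave 172 ± 23.3 for Cat, 109 ± 35.9 for Cyba, 67.3 ± 26.2 for Sod3, 64.7 ± 7.43 for Sod1 and 36.5 ± 4.15 for Sod2 (SD, n = 5 each). Ncf1 was next at 4.71 ± 1.70, then Ncf4 at 2.25 ± 1.09, Nox4 at 1.66 ± 0.445 and Cybb at 1.21 ± 0.834. Ncf1 thus went from the lowest place to the first among the 4 low genes. The place of Sod1 depends on the length used, because over all its annotated exons (3970 bases in place of 641) it was at 9.43 ± 2.93 in control eyes, the lowest of the 3 dismutases.

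Summed on this scale, the removal genes were at 201 to 282 CPM per kilobase in control eyes and at 262 to 383 in Nrf2 eyes. The production genes were at 36.7 to 77.7 and at 86.5 to 169, so that only their groups did not overlap. Cyba made up 91.4% to 96.8% of the production sum in control eyes and 90.2% to 93.2% in Nrf2 eyes. The ratio of removal to production had a median of 5.48 (3.47 to 6.22) in control eyes and 3.03 (2.27 to 4.00) in Nrf2 eyes, lower in the Nrf2 eye in 5 of 5 mice, with overlapping groups. This ratio follows Cyba, which missed the threshold, and it was computed after the values had been seen.

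**Figure D5:**
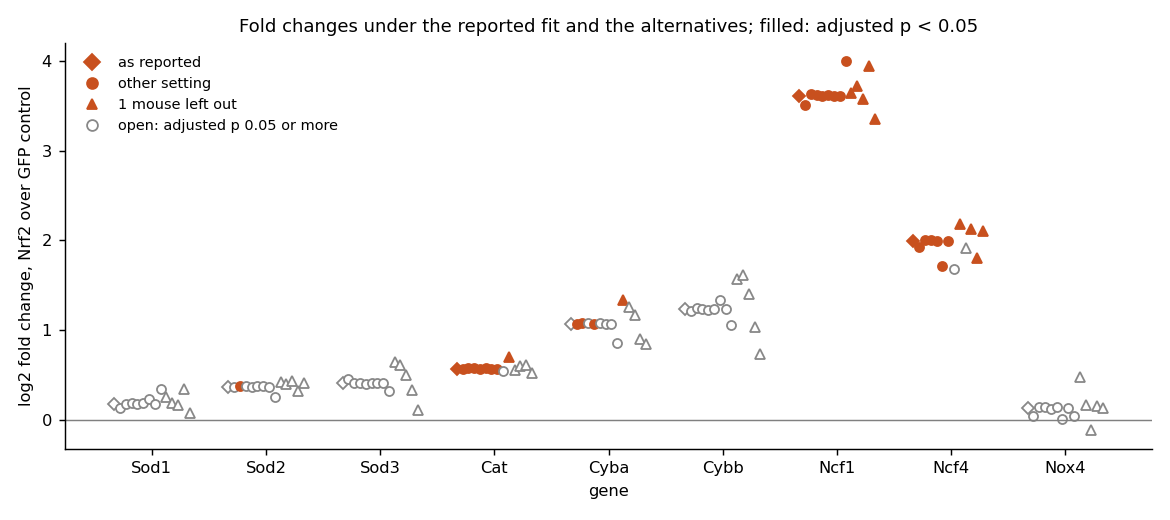
Fitted log2 fold change of each gene under the reported fit (diamond), 8 other settings (circles) and with 1 mouse left out (triangles), filled where the adjusted p was under 0.05. Ncf1 is filled throughout at 3.35 to 4.00, Cat (0.52 to 0.70) is open in 5 alternatives and Ncf4 in 2, at 1.68 with the rod markers as a covariate and 1.92 without mouse 2, Cyba is filled in 4 alternatives, and Nox4 lies between -0.12 and 0.48.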

How the data were processed

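RPE RNA of 5 mice was compared between the Nrf2 eye and the GFP control eye, paired by the mouse number in the labels (within-mouse r of log2 CPM deviations 0.19 to 0.71, between mice -0.42 to 0.28). The authors aligned reads with STAR to mm10 with Ensembl transcripts and counted them with featureCounts, and estimated counts with Salmon (0.8.2 per the processing notes) in parallel. The deposited values are whole-number raw counts per gene without normalization. Which tool gave them, the strand setting and filters are not given in the sources used here. Symbols came from GENCODE M21 (47310 of 47729 identifiers matched).

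Genes passing filterByExpr by group (16362) entered the edgeR test (version 4.0.16, R 4.3.3, with TMM, quasi-likelihood F test, mouse as a block, Benjamini-Hochberg over all genes, threshold 0.05), after the code had been tested on artificial counts. The filter needs enough counts in only as many libraries as a group holds, so genes high in just the Nrf2 eyes could enter. SE is the SD of 5 within-mouse log2 CPM differences (prior count 2) over the square root of 5. Near copies share at least 95% over at least 100 bases. Alternatives included DESeq2 1.42.0, other filters and leaving out each mouse. Named were the 9 genes, Rac1, Rac2 and Ccs, called genes of 5 pathway lists, and, for likeness, the top 3 genes by Pearson's r. Duox1, Xdh, Nox3, Pex19 and the marker genes were named outside that rule, after their values had been seen. The genes and lists were chosen with earlier results of these data known. Sequencing runs (2 per the labels) were not compared, since the titles do not separate them. A gene of the pathway lists is not reported here and was left out of their counts.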

Additional observations from a re-analysis of the deposited data

How the results depend on the processing

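Of the 9 genes, Ncf1 passed the test in all 13 alternatives, and Sod1, Sod3, Cybb and Nox4 in 0. The number of genes called over the whole table was 1812 with DESeq2, 496 with the rod markers as a covariate and 584 to 857 with 1 mouse left out. The count of removal genes called, 1 as reported, was 2 with DESeq2 (Sod2 and Cat), 0 with the rod covariate and 0 to 1 with 1 mouse left out. That of production genes, 2 as reported, was 1 with the rod covariate, 1 with a minimum mean of 50 counts, at which Ncf4 was not tested, 3 with DESeq2, 3 when low counts were not filtered, 3 without the replicate block and 1 to 3 with 1 mouse left out. Without mouse 3, Nox4 turned to -0.12, in a range up to 0.48. Without the replicate block, which drops the pairing of the eyes, 755 genes were called, 687 of them shared with the paired fit, and Cyba passed in addition. The medians of the removal genes (0.26 to 0.53) and of the production genes (0.84 to 1.62) kept their sign with 1 mouse left out. Apart from fewer genes tested or fewer mice, the cause was not tested. Ncf4 and the control values of Ncf1 rest on few counts, which limits their precision.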

Other observations

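Genes with the most similar pattern over the 10 libraries were listed for each gene by Pearson's r of log2 CPM, as a description of libraries that share their handling. Cat was most like Atic, a gene of purine synthesis (r = 0.973), Aldh7a1, an aldehyde dehydrogenase (0.960), and Pigk (0.960). After the group means were subtracted, these were 0.910, 0.855 and 0.821. Sod2 was most like Ncstn (0.957), Sod1 like Rnf11 (0.963) and Cyba like Mab21l2 (0.978). Cybb was most like Mx2, an interferon-induced gene (0.942, and 0.949 within groups). Ncf4 was most like Bcl2a1b (0.966, and 0.898 within groups) and Nox4 like Shisa6 (0.968 in both forms).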
